A study of Mus musculus with 8 samples.

Results

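The contractile genes of myofibroblasts and smooth muscle were followed in dermal fibroblasts cultured from mice with and without deletion of *Tgfb1* in fibroblasts. They were taken from the deposited table by gene symbol, and all 10 symbols had a row among 15111 genes. The early contractile genes were *Acta2*, *Tagln*, *Cnn1*, *Myl9*, *Tpm1* and *Tpm2*, and the late smooth muscle genes were *Myh11*, *Lmod1*, *Actg2* and *Des*. This split into early and late was chosen for the comparison. Both groups of mice carried floxed *Tgfb1* alleles and were fed tamoxifen, and the fibroblasts were isolated from them as adults. TGFβ1FKO mice (Tgfb1fl/fl:Col1a2-CreERT) also carried a tamoxifen-inducible Cre recombinase driven by *Col1a2* regulatory sequence, and control mice (Tgfb1fl/fl) had no Cre. The Cre can also act in other cells that make collagen, and the controls do not account for the Cre itself. Primary fibroblasts were kept for 72 h on fibronectin in serum replacement medium, and 4 libraries of polyadenylated RNA per group were sequenced. The labels do not say that each library came from its own mouse, so p-values measure the spread between these libraries, which may be technical.

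A fibroblast that becomes a myofibroblast assembles stress fibres from smooth muscle α-actin, and TGFβ is the best known signal for this step. The same actin, with its tropomyosins and light chains, appears early when a smooth muscle cell differentiates. Smooth muscle myosin heavy chain and leiomodin come with the mature contractile state. Serum response factor binds CArG boxes in many of these genes, with myocardin or the myocardin-related factors as partners, and TEAD factors bind MCAT elements. The study deleted *Tgfb1* to ask what fibroblasts lose when they cannot make this factor.

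The sequence in front of the genes is shown first, since these elements tie many contractile genes to the same factors. Windows of 250 bases before the RefSeq start (build GRCm38.p6) were at hand for 7 of the 10 genes and not for *Myh11*, *Tagln* and *Actg2*. A CArG box (CC, 6 bases of A or T, then GG) or a CArG-like box with G or C at 1 of the 6 inner bases was found in 2 of the 7 genes, against 8.59% of 32851 windows of the same length. An MCAT element, CATTCC or its reverse complement, was found in 3 of the 7 genes, against 12.6% of these windows. Both strands were searched, and the 2 kinds of element did not overlap each other in the sequences shown. Capitals mark the elements below. The *Acta2* sites, on the minus strand, and the *Tpm1* site lie inside exon sequence of longer transcripts in the GENCODE M21 annotation, so only 30 bases of each are shown.
*Acta2* CArG-like box, 84 to 75 bases before the start, chr19:34255438-34255467, minus strand: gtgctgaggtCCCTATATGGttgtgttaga
*Acta2* CArG-like box, 34 to 25 bases before the start, chr19:34255388-34255417, minus strand: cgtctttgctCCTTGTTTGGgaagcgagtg
*Acta2* MCAT element, 146 to 141 bases before the start, chr19:34255502-34255531, minus strand: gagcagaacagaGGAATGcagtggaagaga
*Tpm1* MCAT element, 56 to 51 bases before the start, chr9:67049252-67049281, minus strand: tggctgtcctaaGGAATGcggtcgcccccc
*Lmod1* MCAT element, 130 to 125 bases before the start, chr1:135324671-135324700, plus strand: ccaagattccctGGAATGtcctcaagtttc
*Myl9*, the part of its window before the first annotated exon, chr2:156775214-156775419, plus strand: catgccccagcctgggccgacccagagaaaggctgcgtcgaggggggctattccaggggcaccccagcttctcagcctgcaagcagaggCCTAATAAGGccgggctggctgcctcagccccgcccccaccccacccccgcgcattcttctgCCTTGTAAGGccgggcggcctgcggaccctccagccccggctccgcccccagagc
In *Myl9* the first of the 2 boxes, 161 to 152 bases before the start, is a CArG box in full, which 1.47% of all windows held, and the other, 99 to 90 bases before it, has G at 1 inner base. The windows of *Cnn1*, *Tpm2* and *Des* held neither element, which says only that these letters are not within these bases. A match is a description of the sequence and not evidence that a factor binds there.

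The depth of the 8 libraries lay between 16988998 and 23071528 reads on genes. *Tgfb1* checked the labels: it averaged 1374 ± 85.4 normalised counts in control (SD, n = 4) and 277.3 ± 42.5 in TGFβ1FKO fibroblasts (SD, n = 4). A normalised count is the number of reads divided by the size factor of the library, after an added constant of 0.5 had been subtracted. *Tgfb1* thus stood at 20.2% of the control level, with a log2 fold change of -2.31 (SE 0.10, limma, adjusted p = 1.53e-07), and the groups did not overlap. All 10 fibroblast markers on the list had a row, and their median difference was -0.01 on the log2 scale. A change was called at an adjusted p under 0.05 over all genes and an absolute log2 fold change over 0.6, and 13 genes or 0.0860% met this with limma. In RNA of whole cultures, fewer cells of a type and less RNA per cell cannot be told apart.

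No contractile gene was called with limma, while the values of 9 of the 10 were higher in TGFβ1FKO fibroblasts and that of *Des* was lower. Of all genes, 50.9% had a higher value in TGFβ1FKO. *Myh11*, the smooth muscle myosin heavy chain, stood apart, with 1.66 times the control level and no overlap between the groups. It was the only 1 of the 10 without overlap, against 3.79% of all genes without overlap in either direction and 1.69% without overlap and higher in TGFβ1FKO. The median log2 fold change of the 10 genes was 0.19, against 0.003 over all 15111 genes, and 11.0% of all genes had a value above the median of the 10. The unadjusted p in limma was under 0.05 for 4 of them, *Myh11*, *Cnn1*, *Lmod1* and *Acta2*, each with a higher level in TGFβ1FKO. At that threshold, 3.59% of all genes were higher and 3.87% lower. Most of the 10 genes varied together from library to library, so these counts do not stand for 10 separate observations. *Myh11* was called by edgeR, as were 0.132% of all genes, and by DESeq2 tested against no change, as were 0.371%.

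**Figure D1:**
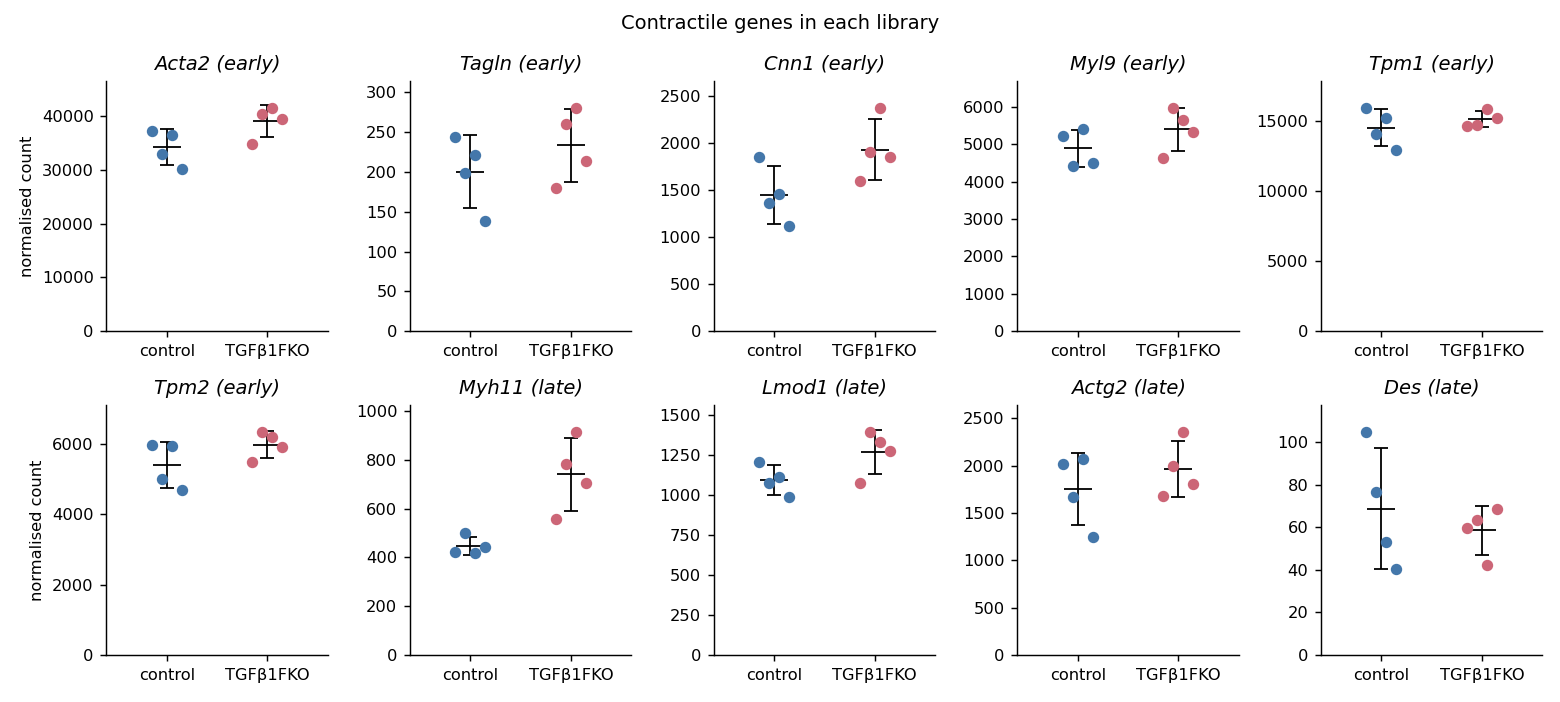
Normalised counts of the 10 contractile genes, 1 panel a gene, with each point a library and the horizontal line and bars the mean and SD of 4 libraries. In *Myh11* the TGFβ1FKO points, from 556.5 to 915.9, all lie above the control points, which reach 498.3, while in the other 9 panels the groups overlap.

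Per kilobase of exon, the mean level over all 8 libraries was highest for *Acta2*, at 16671 normalised counts per kb. *Myl9* followed with 4427, *Tpm1* with 2285 and *Tpm2* with 1959 per kb, and the library ranges of the last 2 overlapped. *Actg2* stood at 1193 and *Cnn1* at 617.7 per kb, again with overlapping ranges, and *Lmod1* at 299.1 per kb. *Tagln* and *Myh11* overlapped at 109.2 and 78.0 per kb, and *Des* was lowest at 17.0 per kb. The place of *Tagln* in this order is uncertain. Of its exon bases, 67.9% also belong to exons of other genes, chiefly the antisense gene *Gm48529*, and reads from such bases cannot be assigned in a library without strand. Over its 639 unshared bases alone, the same counts make 339.8 per kb, above *Lmod1*.

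*Acta2* (chr19:34241090-34255590), which encodes smooth muscle α-actin, gave 37213, 32944, 36544 and 30099 normalised counts in control libraries 1 to 4. It gave 34699, 40369, 41512 and 39504 in TGFβ1FKO libraries 1 to 4. Libraries 2 to 4 of TGFβ1FKO lay above every control, and library 1 lay between the controls. The means were 34200 ± 3315 and 39021 ± 2996 (SD, n = 4 each), and the log2 fold change was 0.19 with a 95% interval from 0.01 to 0.37 (limma, adjusted p = 0.654). The two-sided exact permutation test gave p = 0.0857, where 4 libraries against 4 allow no p below 0.0286. The upper bound of that interval lies below the threshold of 0.6.

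*Cnn1* (chr9:22099216-22109630), which encodes calponin 1, an actin-binding protein of the thin filament, had the highest log2 fold change of the early genes. Its control libraries gave 1856, 1361, 1455 and 1120 normalised counts, and its TGFβ1FKO libraries gave 1592, 1910, 2376 and 1850. All TGFβ1FKO values exceeded the control mean, but control library 1 lay above 2 of them. The means were 1448 ± 306.3 and 1932 ± 326.3 (SD, n = 4 each), a ratio of 1.33. The log2 fold change of 0.42 (95% interval 0.12 to 0.73) did not pass the test (limma, adjusted p = 0.536, exact permutation p = 0.0857).

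*Tagln* (chr9:45929619-45936058), which encodes transgelin or SM22α, an actin-binding protein, gave 243.5, 198.7, 221.8 and 138.3 normalised counts in the controls. The TGFβ1FKO libraries gave 179.4, 261.0, 280.7 and 213.8. Control library 4 was the lowest and the groups overlapped across most of their range. On the log2 scale the fold change was 0.23 (95% interval -0.16 to 0.62, limma, adjusted p = 0.804, exact permutation p = 0.371), and 0.06 without control library 4. The antisense neighbour *Gm48529* had 32.8 ± 12.5 and 27.3 ± 11.0 normalised counts (SD, n = 4 each). How reads of the shared bases were counted is not given in the sources used here.

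*Myl9* (chr2:156775420-156781658), the regulatory light chain whose phosphorylation starts smooth muscle contraction, ranged from 4431 to 5419 normalised counts in control and from 4638 to 5973 in TGFβ1FKO libraries. Its log2 fold change was 0.14 (95% interval -0.04 to 0.33, limma, adjusted p = 0.725). The tropomyosins wind along the actin filament. *Tpm1* (chr9:67022590-67049406) averaged 14518 ± 1315 and 15120 ± 567.7 normalised counts (SD, n = 4 each), a log2 fold change of 0.06 with an interval from -0.08 to 0.21, and 0.0082 without control library 4. *Tpm2* (chr4:43514711-43523765) averaged 5408 ± 649.9 and 5989 ± 379.8 (SD, n = 4 each), a log2 fold change of 0.15 with an interval from -0.02 to 0.33. Their adjusted p-values in limma were 0.866 and 0.702, and the groups overlapped in all 3 genes.

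*Myh11* (chr16:14194535-14291372), the motor protein of smooth muscle, gave 422.4, 498.3, 419.1 and 442.5 normalised counts in control libraries 1 to 4. In TGFβ1FKO libraries 1 to 4 it gave 556.5, 782.9, 915.9 and 704.6. Every TGFβ1FKO library lay above every control, library 3 was the highest, and the spread was wider than among the controls. The means were 445.6 ± 36.6 and 740.0 ± 150.2 (SD, n = 4 each). The log2 fold change was 0.71 (SE 0.13), or 1.36-fold to 1.98-fold as a 95% interval. The exact permutation p was 0.0286, the smallest that this design allows, and 18 of all genes had a lower p in limma.

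The call of *Myh11* depended on the test. The adjusted p was 0.0649 with limma, 0.0497 with edgeR and 3.40e-05 with DESeq2, and across all alternatives it ran from 3.40e-05 to 0.278. Without TGFβ1FKO library 1 the log2 fold change was 0.84 and the call was made (limma, adjusted p = 0.0106), and without any other single library it lay between 0.60 and 0.77 and no call was made. No exon of *Myh11* is shared with another gene, and 0.4% of the 50-base words in the transcript examined occur in other genes, among them *Myh9* and *Myh10*.

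The other late genes did not share this difference in size. *Lmod1* (chr1:135324807-135368065), which encodes leiomodin 1, a nucleator of actin filaments, gave 1207, 1074, 1110 and 983.7 normalised counts in the controls. Its TGFβ1FKO libraries gave 1075, 1395, 1328 and 1273. Libraries 2 to 4 of TGFβ1FKO were above every control, as for *Acta2*, and library 1 was close to control library 2. Its log2 fold change was 0.21 (95% interval 0.03 to 0.39, limma, adjusted p = 0.641, exact permutation p = 0.0857).

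*Actg2* (chr6:83512905-83536265), the γ-actin of visceral smooth muscle, gave 2015, 1673, 2076 and 1249 normalised counts in the controls. It gave 1682, 1995, 2362 and 1808 in the TGFβ1FKO libraries. The groups overlapped, with control library 4 the lowest and TGFβ1FKO library 3 the highest. For this gene the log2 fold change was 0.18, with a wide interval from -0.13 to 0.49 (limma, adjusted p = 0.810, exact permutation p = 0.457), and it was 0.02 without control library 4.

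*Des* (chr1:75360329-75368579) encodes desmin, the intermediate filament of muscle cells and of pericytes. The controls gave 105.0, 76.5, 53.2 and 40.5 normalised counts, and the TGFβ1FKO libraries gave 59.8, 63.2, 42.4 and 68.7. The TGFβ1FKO values all lay within the control range. The log2 fold change was -0.16 (95% interval -0.74 to 0.42, limma, adjusted p = 0.918, exact permutation p = 0.686), and without control library 1 it was 0.07.

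**Figure D2:**
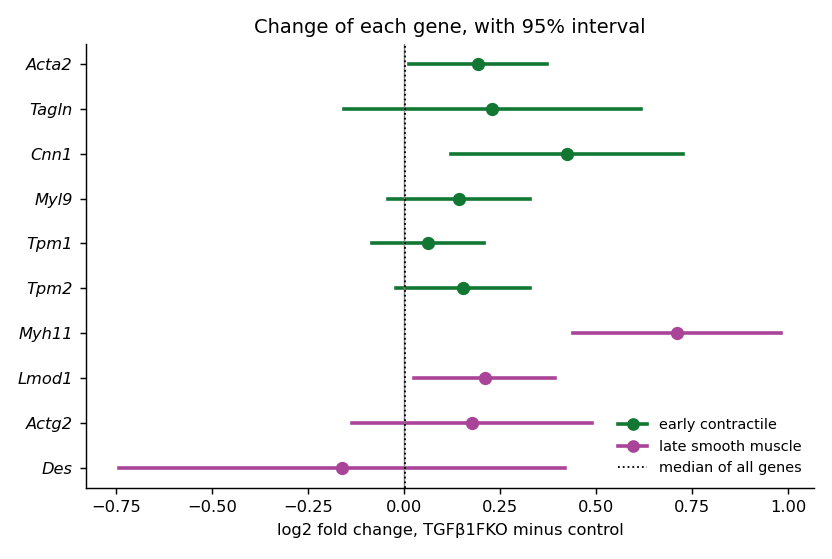
Log2 fold change of each contractile gene, TGFβ1FKO minus control, with its 95% interval from limma, early genes in green and late genes in purple. The interval of *Myh11* starts at 0.44, that of *Cnn1* at 0.12, and those of *Tagln*, *Myl9*, *Tpm1*, *Tpm2*, *Actg2* and *Des* include 0.

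How far the late genes as a group moved apart from the early genes depended on how the medians were taken. The median log2 fold change was 0.17 over the 6 early genes, from 0.06 to 0.42, and 0.19 over the 4 late genes, from -0.16 to 0.71. Their difference was 0.02. *Myh11* alone exceeded the early median by 0.54, and the other 3 late genes had a median of 0.18. Medians of log2 deviations from the mean of each gene were also taken within each library. For early genes they were 0.09, -0.16, 0.05 and -0.27 in control libraries 1 to 4. In TGFβ1FKO they were -0.06, 0.19, 0.17 and 0.06. For late genes they were 0.09, -0.13, -0.14 and -0.46, and -0.08, 0.19, 0.27 and 0.14. Late minus early so taken had a pooled SD of 0.094 within groups, a different measure from the 0.02. It was lowest in control libraries 3 and 4 and highest in TGFβ1FKO libraries 3 and 4. The group mean of this measure was higher in TGFβ1FKO than in control by more than that SD. The libraries of the groups overlapped on it, and the difference was not tested. Set against *Acta2* within each library, *Myh11* stood at 1.43 times the control ratio, less than the 1.66 times of its level. There were 11.4, 15.1, 11.5 and 14.7 counts of *Myh11* per 1000 counts of *Acta2* in the controls, and 16.0, 19.4, 22.1 and 17.8 in TGFβ1FKO libraries. The groups did not overlap on this ratio, whose means were 13.2 ± 2.03 and 18.8 ± 2.55 (SD, n = 4 each). How many of all genes lack overlap on such a ratio was not counted.

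The other ratios to *Acta2* overlapped between the groups. *Lmod1* kept 32.0 ± 1.11 counts per 1000 of *Acta2* in control and 32.4 ± 1.51 in TGFβ1FKO libraries (SD, n = 4 each). For *Actg2* the ratio was 50.8 ± 6.67 and 50.1 ± 4.76, and for *Cnn1* it was 42.0 ± 5.48 and 49.3 ± 5.31. That of *Des* was 1.99 ± 0.707 and 1.51 ± 0.337. No test was run on the ratios, since *Myh11* was singled out after its values had been seen.

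**Figure D3:**
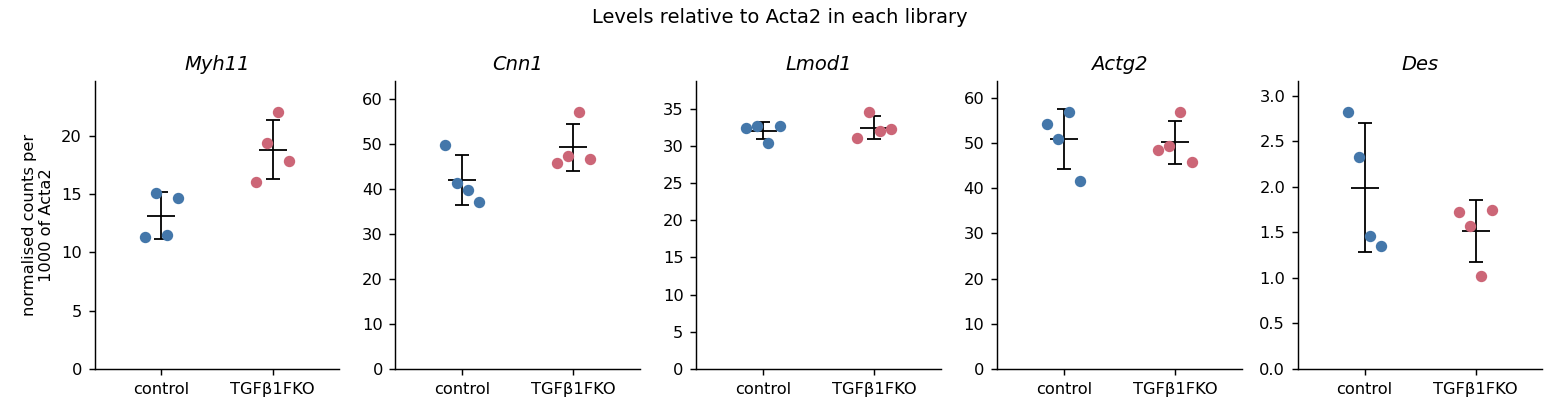
Normalised counts of 5 contractile genes per 1000 counts of *Acta2* in the same library, with the mean and SD of 4 libraries per group. The ratio of *Myh11* reaches 15.1 in control and starts at 16.0 in TGFβ1FKO libraries, and the ratio of *Lmod1* stays between 30.4 and 34.6 in all 8.

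Most of the contractile genes varied together from library to library. Control library 4 held the lowest value of 8 of the 10 genes, and TGFβ1FKO library 3 the highest of 5. Against the mean of each gene over all 8 libraries, control library 4 and TGFβ1FKO library 1 were below it for all 10 genes, while control library 1 and TGFβ1FKO libraries 2, 3 and 4 were each above it for 9. Over the 8 libraries, *Acta2* and *Lmod1* had Pearson's r = 0.949 (exact permutation p = 0.000248, adjusted 0.00491 over 45 pairs) and Spearman's rho = 0.976 (exact permutation p = 0.000397, adjusted 0.0171). Without the 2 libraries farthest from the median of *Acta2* r was 0.926, and after the group means were removed it was 0.912.

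The values of *Myh11* formed 2 groups, so no r over all libraries is given for it. Among the 28 pairs of the 8 genes without *Myh11* and *Des*, r ran from 0.68 to 0.96 with a median of 0.88, and 26 pairs had an exact permutation p under 0.05 after adjustment by Pearson's r and 17 by Spearman's rho. Leaving out the 2 farthest libraries brought the median to 0.73, with a range from 0.18 to 0.98. Some relations that passed by Pearson's r also rested partly on those libraries. For *Tpm1* and *Tpm2*, r went from 0.86 to 0.29. For deviations from the group means the median of the 28 pairs was 0.89. For *Myh11* and the same 8 genes, r of these deviations was 0.10 to 0.57, which pools relations of opposite sign. It was -0.82 to -0.26 within the 4 control libraries and 0.75 to 0.98 within the 4 TGFβ1FKO libraries, too few to test in each group. *Des* had r from -0.01 to 0.38 with the same 8 genes over all libraries, which also pools relations of opposite sign. For *Des*, r was 0.26 to 0.88 within the control libraries and -0.81 to -0.15 within the TGFβ1FKO libraries, again too few to test. All 8 libraries share a culture protocol and a normalisation.

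**Figure D4:**
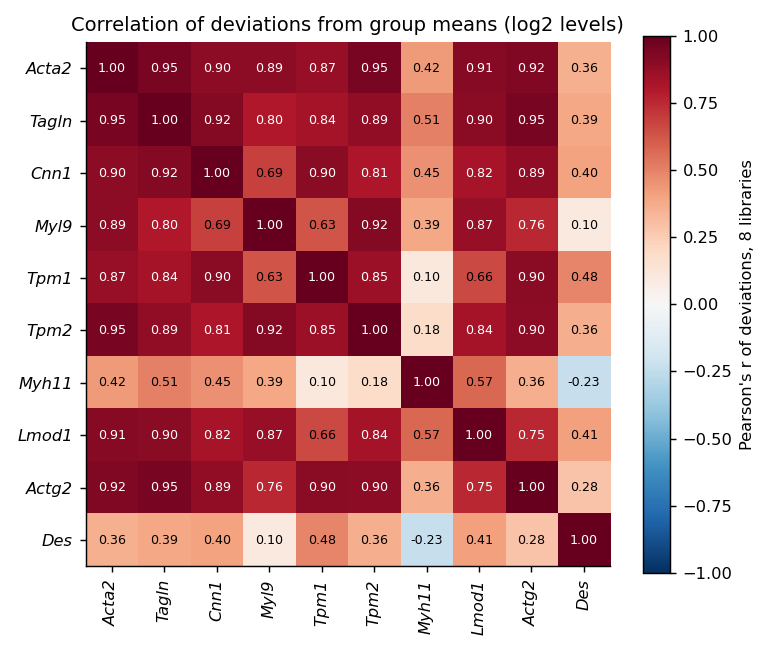
Pearson's r between the 10 contractile genes over 8 libraries, computed on log2 levels after the mean of each group was subtracted. The 8 genes without *Myh11* and *Des* have r from 0.63 to 0.95 with each other, and *Myh11* has r from 0.10 to 0.57 with them, both groups pooled.

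Of 11561 genes with a mean of at least 50 normalised counts, those whose log2 levels were most like *Acta2* over the 8 libraries, contractile genes left out, were *Impa1* (r = 0.966), *Prkar2a* (0.958), *AI506816* (0.955), *Cd44* (0.954) and *Mdm2* (0.952). Among all of them *Tpm2* ranked 5, *Lmod1* 10, *Cnn1* 13, *Tagln* 23 and *Myl9* 29. *Actg2* ranked 45, *Tpm1* 93 and *Des* 4610. *Myh11* ranked 364, but this rank rests on r over all libraries, for which its 2 groups of values are ill suited.

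The wider contractile machinery was read from 6 lists of 96 genes, of which 88 were in the table. None was called with limma or edgeR, which called 0.0860% and 0.132% of all genes. DESeq2 called 1 of them, *Nes*, and 0.371% of all genes. Of the 88, 54 had a higher and 34 a lower level in TGFβ1FKO fibroblasts, and the median difference was 0.05 on the log2 scale. The unadjusted p was under 0.05 for 14 higher and 6 lower genes, where 3.59% and 3.87% of all genes passed this threshold in each direction. The groups did not overlap for 5 higher and 2 lower genes, where 1.69% of all genes were higher without overlap and 3.79% had no overlap in either direction.

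Among 25 genes of stress fibres and dense plaques, 6 higher and 3 lower genes had an unadjusted p under 0.05. *Flna*, which crosslinks actin filaments, averaged 31565 ± 1836 normalised counts in control and 37363 ± 2398 in TGFβ1FKO fibroblasts (SD, n = 4 each) without overlap, a log2 fold change of 0.24 (limma, adjusted p = 0.455). *Csrp2*, a LIM-domain protein of smooth muscle, averaged 992.2 ± 105.7 and 770.2 ± 84.6 (SD, n = 4 each), a log2 fold change of -0.37 (limma, adjusted p = 0.318). *Csrp1*, the most abundant of this list per kb, had a log2 fold change of 0.09.

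Among 16 genes of myosin, its regulation and actin filament proteins such as calponins and tropomyosins, 3 had an unadjusted p under 0.05, all higher. *Dstn*, an actin-depolymerising protein, and *Myh9*, a non-muscle myosin heavy chain, had log2 fold changes of 0.17 and 0.16, and *Tpm4* was at 0.04. The other actins gave 0.25 for *Acta1*, 0.06 for *Actg1* and -0.01 for *Actb*, with none under that p. Both cytoplasmic actins thus lay within 0.06 of no change.

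Intermediate filament genes gave 1 of 8 with an unadjusted p under 0.05. *Nes*, which encodes nestin, gave 199.6, 280.5, 330.4 and 78.0 normalised counts in the controls and 69.9, 33.1, 77.2 and 58.7 in TGFβ1FKO libraries. Control library 4 lay just above the highest TGFβ1FKO library. The log2 fold change was -1.76 (limma, adjusted p = 0.169), and DESeq2 called it. *Vim*, the vimentin of fibroblasts, was at 0.10 and the small heat shock protein *Hspb6* at 0.13.

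Of 8 channel and calcium genes in the table, 1 had an unadjusted p under 0.05. It was *Kcnmb1*, a subunit of the large calcium-activated potassium channel of smooth muscle. It gave 105.8, 80.7, 83.2 and 63.2 normalised counts in the controls and 75.0, 198.8, 157.8 and 136.3 in TGFβ1FKO libraries. As for *Acta2* and *Lmod1*, TGFβ1FKO libraries 2 to 4 were above every control and library 1 was not (log2 fold change 0.70, limma, adjusted p = 0.597). *Itpr1*, a calcium release channel, was at 0.21 and *Atp2a2*, the calcium pump of the reticulum, at 0.06.

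Of 29 regulators in the table, 4 higher and 2 lower genes had an unadjusted p under 0.05. *Srf* was at 0.12 on the log2 fold change scale, *Mrtfa* at 0.03 and *Mrtfb* at 0.16, and *Myocd*, the myocardin of smooth muscle, had no row in the table used here. *Rock2*, a kinase that keeps the myosin light chain phosphorylated, averaged 3605 ± 165.7 and 4046 ± 191.4 normalised counts (SD, n = 4 each) without overlap (log2 fold change 0.17, limma, adjusted p = 0.536). *Prdm6*, a repressor described in smooth muscle, averaged 15.9 ± 7.23 and 4.11 ± 4.20 (SD, n = 4 each), with 0 in TGFβ1FKO library 4 and a log2 fold change of -2.16 (limma, adjusted p = 0.510). *Rhob* was at 0.00.

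Markers of other cells that express contractile genes were read beside these results. Of 14 pericyte and vascular smooth muscle markers, 8 were in the table and 6 of these were lower in TGFβ1FKO, and their summed level, most of it *Pdgfrb*, was 19445 to 22908 normalised counts in control and 19726 to 21535 in TGFβ1FKO libraries. The markers *Kcnj8*, *Higd1b*, *Cox4i2*, *Gja4*, *Rergl* and *Ntf3* had no row in the table used here. The log2 fold changes of the 8 ran from -1.20 for *Abcc9* to 0.24 for *Notch3*, with *Cspg4* at -0.50. *Rgs5*, a marker of pericytes, gave 25.8, 28.7, 23.3 and 18.8 normalised counts in the controls and 9.12, 41.4, 30.7 and 44.3 in TGFβ1FKO libraries, where libraries 2 to 4 were above every control and library 1 was below, and its log2 fold change was 0.17. The part of such cells in the level of *Myh11* was not tested. Of 18 skeletal muscle markers, 5 were in the table, each with a lower value in TGFβ1FKO, summing to 54.3 to 86.9 normalised counts in control and 39.5 to 44.3 in TGFβ1FKO libraries, and *Myod1*, *Myf5*, *Myog* and *Pax7* had no row. The part of skeletal muscle cells in the values of *Des* was not tested.

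Endothelial markers were in the table for 8 of 8 genes, all with lower values, at 509.6 to 820.2 summed counts in control and 510.9 to 557.2 in TGFβ1FKO libraries. Macrophage markers, 3 of 7 in the table, summed to 456.9 to 550.1 and 296.4 to 513.7, and keratinocyte markers, 4 of 9, to 112.7 to 152.1 and 147.8 to 172.9. Their part in the contractile genes was not tested.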

How the data were processed

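Fibroblast RNA was sequenced in 4 control and 4 TGFβ1FKO non-directional paired-end libraries. The submitters' processing notes name CASAVA 1.8, HISAT2 2.0.5, featureCounts 1.5.0-p3, R 4.3.2, DESeq2 1.42.0 and GRCm38/mm10, and the authors left out genes with low counts. The deposited normalised counts are a signal, made by dividing reads by the library's size factor and adding 0.5. Subtracting 0.5 gave whole reads within 0.01 for 100% of values in every library. Columns of the authors' own comparison (log2 fold change, its error, a score, p-values) were deposited with them and not used.

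Log2 values with a pseudocount of 1 were compared with limma 3.58.1 and a mean-variance trend in R 4.3.3, without a block, and p-values were adjusted by the Benjamini-Hochberg method over all 15111 genes. Fold changes are on that log2 scale, which understates the change of low genes. Single genes and correlations were also tested by two-sided exact permutation. As alternatives, recovered reads went into edgeR 4.0.16 (20 genes called) and DESeq2 1.42.0, beside TMM scaling, pseudocounts of 0.5 and 5, at least 10 reads in every library, which all 10 contractile genes passed, a replicate block, and each library left out. The tests were tested on simulated data. The lowest chi-square per degree of freedom between libraries of a group was 4.89, so all of them differed beyond sampling noise.

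The contractile genes and all lists were chosen with earlier results of these data known. Named from the lists were genes called by any of the 3 tools, the 2 of lowest limma p and the most abundant per kb in each list. Some regulators, markers and overlapping genes were named in addition, after their values had been seen. Positions and exon lengths are from GENCODE M21 (GRCm38), which held 15098 of the genes, and promoter windows are from RefSeq (GRCm38.p6).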

Additional observations from a re-analysis of the deposited data

Results flagged for a closer look

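The summed level of the keratinocyte markers was 152.1 normalised counts in control library 4, against 112.7 to 116.4 in the other control libraries, which put it far from its group by Dixon's test. It is the same library that held the lowest value of 8 of the 10 contractile genes. Of 34 groups of 4 libraries examined in this way, about 1.7 would be expected to stand out by chance.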

How the results depend on the processing

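The number of genes called was 13 with limma, 20 with edgeR, 22 with edgeR and TMM, 56 with DESeq2, 3 with at least 10 reads in every library, 31 with the replicate block, and 5 to 32 with single libraries left out. The most, 32, came without control library 4. No contractile gene was called with limma, and 1, *Myh11*, with edgeR, edgeR with TMM, DESeq2, the replicate block and without TGFβ1FKO library 1, so that single libraries left out gave 0 to 1. Its adjusted p was 0.149 with at least 10 reads in every library, where fewer genes were tested, and the cause was not tested. Same-numbered libraries of the 2 groups had r of their deviations from -0.13 to 0.16, and differently numbered ones from -0.32 to 0.39. With so few libraries, these values cannot tell whether the replicate number pairs them. Contractile genes without overlap numbered 1, and 1 to 3 with single libraries left out. They were *Cnn1* and *Myh11* without control library 1, and *Acta2*, *Myh11* and *Lmod1* without TGFβ1FKO library 1. The share of all genes without overlap was not taken with a library left out, where groups separate more easily. The late minus early difference of the median log2 fold changes was 0.02. It ran from -0.0045 to 0.038 with single libraries left out, and was -5.2e-05 without TGFβ1FKO library 3. It was -0.017 without *Tpm1* and *Tpm2* and 0.057 with *Cnn1* counted as late. *Des* was at 0.069 without control library 1 and at -0.38 without control library 4. The other contractile genes and *Tgfb1* kept their direction in all 16 alternatives of each, but without control library 4 *Tagln* went from 0.23 to 0.062, *Tpm1* from 0.062 to 0.0082, *Actg2* from 0.18 to 0.024 and *Tpm2* from 0.15 to 0.089. Without TGFβ1FKO library 3 *Tagln* was at 0.13, *Tpm1* at 0.039 and *Actg2* at 0.085. *Tagln* was at 0.35 without TGFβ1FKO library 1, *Myl9* at 0.093 without TGFβ1FKO library 2, *Tpm1* at 0.11 without control library 1 and *Actg2* at 0.27 without control library 3. With 40.5 to 105.0 normalised counts, *Des* had the widest interval of the 10 genes.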
